A study of Mus musculus with 15 samples.

Results

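The atrophy-linked genes of muscle described here are 10 of the 39179 genes counted in each mouse: the ubiquitin ligase genes Fbxo32, Trim63, Fbxo30, Fbxo21, Fbxo31 and Cblb, the forkhead factors Foxo1, Foxo3 and Foxo4, and the Krüppel-like factor Klf15. They were taken by name and not by their values. RNA came from the quadriceps of 15 C57BL/6 mice that were wild type or carried the V338Y point mutation of the mitochondrial ribosomal protein gene Mrps5, a homozygous knock-in by the methods. There were 4 wild-type and 4 V338Y mice at 3 mo of age, and 3 and 4 of these at 19 mo. The study asked how misreading in mitochondrial protein synthesis, which this mutation raises, bears on the ageing of muscle. Values are CPM, counts scaled to the same library total, after TMM scaling, and every mouse is named by its group and its number in the labels.

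Muscle protein is degraded largely by the ubiquitin-proteasome system, in which an E3 ligase chooses the protein to be marked. Fbxo32 (atrogin-1) and Trim63 (MuRF1) are the classical muscle-specific ligases and are known to rise together in fasting, denervation and glucocorticoid excess. FoxO factors switch both genes on when signalling from insulin and IGF1 through Akt is low. Akt keeps these factors out of the nucleus by phosphorylation, so that their mRNA does not show their activity. Klf15 is a glucocorticoid-induced factor that drives amino acid breakdown in muscle. In whole muscle, fewer cells of a type and less RNA per cell cannot be told apart.

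The promoters of Trim63 and Klf15 are shown because, of the 8 windows searched, only these held any of the letters marked. Whether these letters bear on the values of the genes was not tested. The windows run from 250 bases before to 50 bases after the start site on the plus strand (RefSeq, GRCm38.p6). Capitals mark TGTTCT, a core of the glucocorticoid receptor site, TGTTTAC, a FoxO core, and CACGTG, an E-box of the kind that clock factors bind.
Trim63, chr4:134314870-134315169: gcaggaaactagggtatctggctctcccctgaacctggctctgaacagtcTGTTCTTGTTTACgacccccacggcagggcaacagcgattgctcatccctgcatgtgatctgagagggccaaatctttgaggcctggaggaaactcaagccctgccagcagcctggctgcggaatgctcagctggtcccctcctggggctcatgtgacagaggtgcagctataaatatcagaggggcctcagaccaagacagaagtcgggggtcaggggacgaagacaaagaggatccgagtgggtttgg
Klf15, chr6:90462326-90462625: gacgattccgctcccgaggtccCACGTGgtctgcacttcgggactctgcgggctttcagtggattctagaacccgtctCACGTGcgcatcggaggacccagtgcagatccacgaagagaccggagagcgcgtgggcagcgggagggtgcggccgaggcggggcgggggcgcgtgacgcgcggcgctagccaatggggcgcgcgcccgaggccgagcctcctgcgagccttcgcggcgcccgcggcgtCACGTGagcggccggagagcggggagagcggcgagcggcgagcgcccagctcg
In Trim63 the receptor core began at -200 and ran straight into the FoxO core at -194. In Klf15 the E-box stood at -228, -172 and -3. Of the 10 genes 8 had a window, searched on both strands, and Fbxo30, Fbxo21, Fbxo31, Cblb, Foxo1 and Foxo3 held none of these letters in theirs. Over all 32851 windows the FoxO core was present in 3.65%, the receptor core in 19% and the E-box in 7.15%. A match describes the letters and not a bound site.

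Libraries held 8250653 to 18968132 counts, and all 10 muscle fibre markers were counted in every mouse. The 3 mo mice had transcripts of the Y-linked Ddx3y (163 to 202 CPM) and at most 0.575 CPM of Xist. The 19 mo mice had 506 to 631 CPM of Xist and at most 0.0827 CPM of Ddx3y, in both genotypes, so that age and sex cannot be told apart, although the methods give the 3 mo mice as female. Clock genes differed between the ages too, with the clock output gene Dbp at 57.4 to 77.7 CPM at 3 mo and at 4.37 to 10.0 CPM at 19 mo. The part of collection time in the age differences was not tested. Mrps5 mRNA, which does not tell the alleles apart, was 23.7 ± 1.83 CPM (SD, n = 4) in wild-type and 25.7 ± 1.5 CPM (SD, n = 4) in V338Y mice at 3 mo, and 17.7 ± 1.79 (SD, n = 3) and 17.4 ± 1.64 CPM (SD, n = 4) at 19 mo.

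With age, Foxo1, Foxo3, Cblb and Fbxo31 rose in wild-type mice and Foxo1, Foxo3 and Cblb rose in V338Y mice. None of the 10 genes passed the test as lower in either genotype. The muscle-specific ligases Fbxo32 and Trim63 passed in no comparison, and their within-group SD, pooled over the 4 groups, was above that of the other 8 genes. Calls were made at an adjusted p under 0.05 (edgeR's quasi-likelihood test, Benjamini-Hochberg adjustment over all tested genes). At that threshold 18.3% of all tested genes were higher and 17.8% lower with age in wild-type mice, and 24.4% were higher and 22.5% lower in V338Y mice, beside 4 and 3 of the 10 genes higher. The median log2 fold change with age over the 10 genes came to 0.64 for wild-type and -0.02 for V338Y mice, beside 0.02 and 0.07 over all tested genes.

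**Figure D1:**
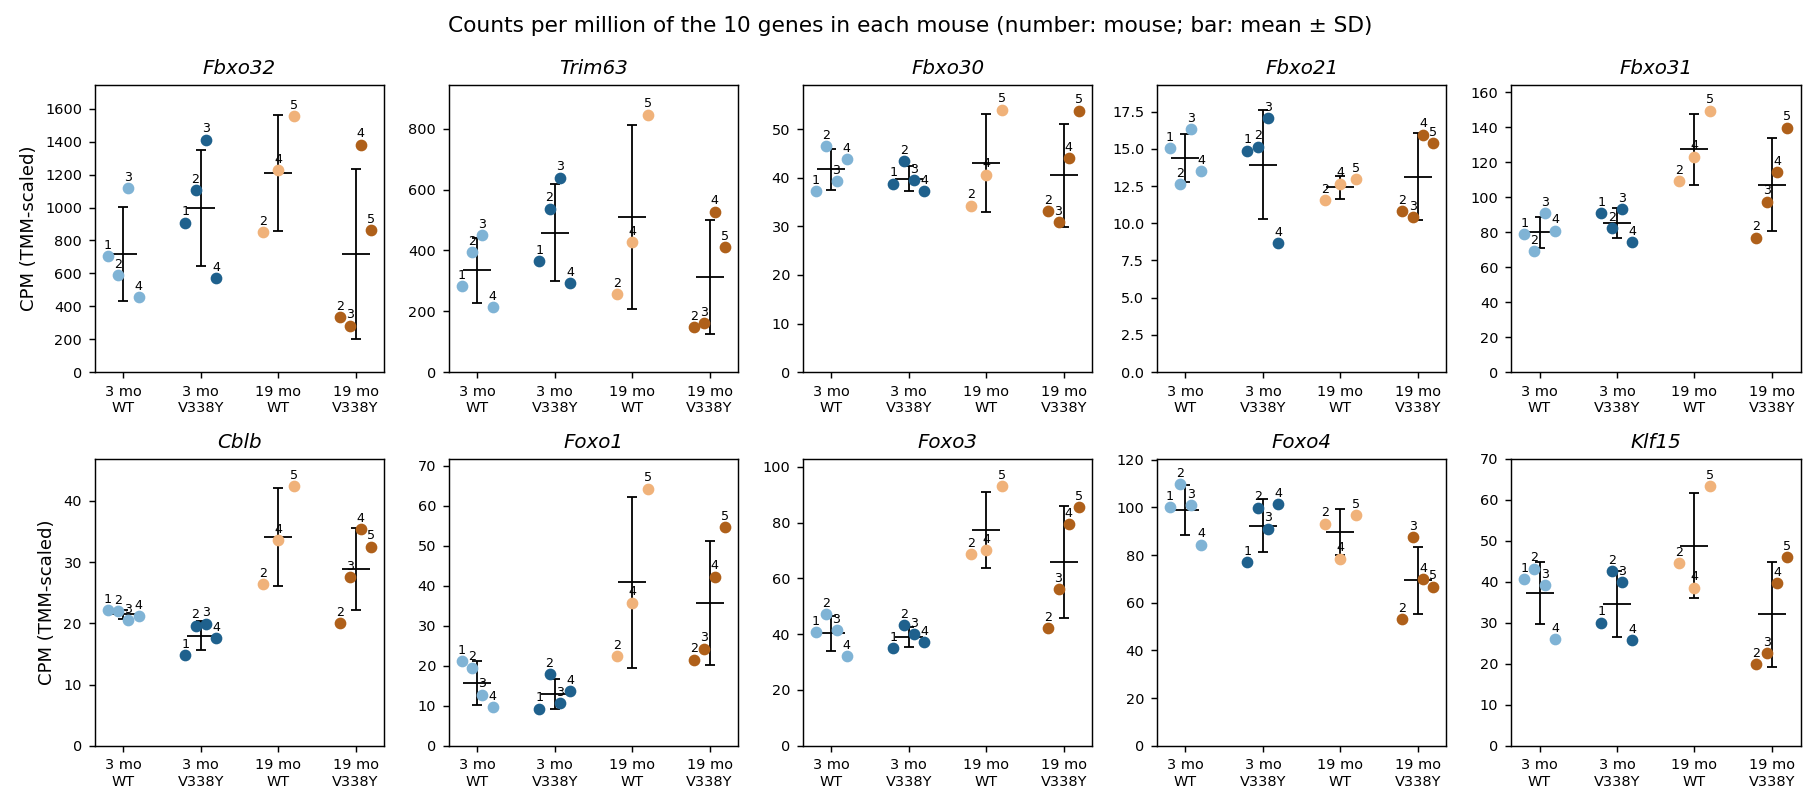
CPM of each of the 10 genes (vertical axes, starting at 0) in every mouse (points, with the mouse number) of the 4 groups, with the group mean and SD as black bars. Foxo1 lay between 9.31 and 21.2 CPM in young mice and between 21.5 and 64.3 CPM in old ones, while Fbxo32 ranged from 282 to 1382 CPM within the 19 mo V338Y group alone.

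Fbxo32 encodes the F-box subunit that brings targets to an SCF ligase. It was at 703, 589, 1116 and 457 CPM in wild-type mice 1 to 4 at 3 mo and at 851, 1225 and 1555 CPM in wild-type mice 2, 4 and 5 at 19 mo. V338Y mice 1 to 4 had 909, 1104, 1413 and 572 CPM at 3 mo, and V338Y mice 2, 3, 4 and 5 had 332, 282, 1382 and 864 CPM at 19 mo. The groups overlapped in every comparison, and the 19 mo V338Y mice held both the lowest 2 values of all 15 mice and a value, 1382 CPM, that was below only 1555 and 1413 CPM. The log2 fold change with age was 0.76 ± 0.30 (SE) in wild-type mice (1.69-fold, adjusted p = 0.072, edgeR) and -0.47 ± 0.49 in V338Y mice (adjusted p = 0.449). The wild-type value passed the threshold without wild-type mouse 3 of the 3 mo group (1.06, adjusted p = 0.015, edgeR) and without wild-type mouse 2 of the 19 mo group (0.95, adjusted p = 0.038), and did not without any other single mouse.

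Trim63, a RING-finger ligase of myofibrillar proteins, had 283, 394, 450.3 and 212 CPM in 3 mo wild-type mice and 257, 427 and 847 CPM in 19 mo wild-type mice. In V338Y mice it had 365, 538, 639.9 and 291 CPM at 3 mo and 148, 160.4, 528 and 411 CPM at 19 mo. Its groups overlapped in every comparison as well, with V338Y mice 2 and 3 of 19 mo lowest and wild-type mouse 5 of 19 mo highest. The change with age was 0.61 ± 0.38 (log2, SE) in wild-type mice (adjusted p = 0.229, edgeR) and -0.54 ± 0.42 in V338Y mice (adjusted p = 0.311). Without wild-type mouse 5 of 19 mo the wild-type value was 0.02.

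The remaining ligase genes are expressed in many tissues. Fbxo31, an F-box protein known for cyclin D1 breakdown, was at 78.7, 69.3, 91.0 and 80.9 CPM in 3 mo and at 109, 123 and 149 CPM in 19 mo wild-type mice. These groups did not overlap, and Fbxo31 rose by 0.67 ± 0.13 (log2, SE; 1.59-fold, adjusted p = 0.00434, edgeR). In V338Y mice it was at 90.9, 82.4, 93.4 and 74.1 CPM at 3 mo and at 76.8, 97.4, 114 and 139.8 CPM at 19 mo. These groups overlapped, at a log2 change of 0.34 ± 0.17 (adjusted p = 0.119, edgeR), which was 0.47 (adjusted p = 0.025) without V338Y mouse 2 of 19 mo. The difference between the 2 age effects was -0.34 ± 0.23 (adjusted p = 0.647, edgeR), so that an unequal response of the genotypes was not shown.

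Cblb is a RING-finger ligase that marks the insulin receptor substrate IRS1 in unloaded muscle. It was at 22.2, 22, 20.6 and 21.1 CPM in 3 mo and at 26.4, 33.6 and 42.4 CPM in 19 mo wild-type mice. In V338Y mice it was at 14.8, 19.6, 19.9 and 17.5 CPM at 3 mo and at 20.04, 27.5, 35.3 and 32.5 CPM at 19 mo. Old and young mice did not overlap in either genotype, and Cblb rose by 0.67 ± 0.15 in wild-type (adjusted p = 0.00767, edgeR) and by 0.70 ± 0.18 in V338Y mice (adjusted p = 0.00976). All 4 young V338Y mice were also below all 4 young wild-type mice, a difference that did not pass the adjustment. Its size was -0.26 ± 0.10 (log2, SE) with an unadjusted p of 0.0248 and an adjusted p of 0.462 in edgeR's fit across all genes.

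Fbxo30 (MUSA1), an F-box ligase gene linked to denervation, differed little between the groups, with means of 41.8 ± 4.21 and 39.8 ± 2.60 CPM (SD, n = 4 each) in the young wild-type and V338Y groups, and 43.0 ± 10.1 (n = 3) and 40.5 ± 10.6 CPM (n = 4) in the old groups. Its changes with age were 0.04 ± 0.15 and 0.04 ± 0.17 for wild-type and V338Y mice (log2, SE; adjusted p = 0.848 and 0.861, edgeR). Fbxo21 (SMART), the least counted of the ligase genes, had means of 14.4 ± 1.64 and 13.9 ± 3.65 CPM (SD, n = 4 each) at 3 mo and of 12.4 ± 0.747 (n = 3) and 13.1 ± 2.93 CPM (n = 4) at 19 mo. Its values were -0.21 ± 0.12 (adjusted p = 0.192) and -0.08 ± 0.22 (adjusted p = 0.781) in the same fits of edgeR. Neither gene showed a difference beyond the spread between mice.

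Foxo1, the FoxO factor most studied in fasting muscle, had the highest fold with age of the 10 genes. It was at 21.2, 19.5, 12.8 and 9.61 CPM in 3 mo and at 22.4, 35.8 and 64.3 CPM in 19 mo wild-type mice. V338Y mice had 9.31, 17.8, 10.7 and 13.6 CPM at 3 mo and 21.5, 24.3, 42.3 and 54.6 CPM at 19 mo. Every old mouse was above every young mouse of its genotype, and the same-numbered old mice 2, 4 and 5 stood in the same order in both genotypes. The rise was 1.37 ± 0.36 in wild-type mice (log2, SE; 2.58-fold, adjusted p = 0.0165, edgeR) and 1.5 ± 0.32 in V338Y mice (2.82-fold, adjusted p = 0.00411). In wild-type mice the call rests on mouse 5 of 19 mo, without which the change was 0.87 (adjusted p = 0.052, edgeR).

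Foxo3, which activates ligase and autophagy genes in wasting muscle, had 40.7, 47.1, 41.5 and 32.0 CPM in 3 mo and 68.8, 70.1 and 93.1 CPM in 19 mo wild-type mice. In V338Y mice it had 35.0, 43.4, 40.04 and 37.2 CPM at 3 mo and 42.3, 56.2, 79.6 and 85.4 CPM at 19 mo. The wild-type groups did not overlap, and the V338Y groups overlapped only in that old mouse 2 lay below young mouse 2. Foxo3 rose by 0.94 ± 0.15 in wild-type mice (1.92-fold, adjusted p = 0.00192, edgeR) and by 0.77 ± 0.20 in V338Y mice (1.71-fold, adjusted p = 0.0115), and passed without any single mouse.

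Foxo4, the X-linked FoxO gene, moved the other way in value. Wild-type mice had 100.2, 109.7, 101 and 84.3 CPM at 3 mo and 93.2, 78.5 and 96.9 CPM at 19 mo. V338Y mice had 77.0, 99.9, 91.1 and 101 CPM at 3 mo and 53.2, 87.6, 70.1 and 66.8 CPM at 19 mo. Of the old V338Y mice 3 lay below every young one, while mouse 3 lay among them. The log2 change was -0.14 ± 0.11 in wild-type mice (adjusted p = 0.353, edgeR) and -0.40 ± 0.15 in V338Y mice (adjusted p = 0.051). The V338Y value stood at the threshold, since it was called lower in 8 of 16 alternative fits, with adjusted p between 0.0114 (edgeR without old mouse 3) and 0.125.

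Klf15 was at 40.7, 43.2, 39.2 and 26.1 CPM in 3 mo and at 44.6, 38.6 and 63.3 CPM in 19 mo wild-type mice. V338Y mice had 30.1, 42.6, 39.9 and 25.7 CPM at 3 mo and 19.9, 22.7, 39.7 and 46.0 CPM at 19 mo. The groups overlapped throughout, and the log2 change with age was 0.39 ± 0.20 in wild-type (adjusted p = 0.163, edgeR) and -0.09 ± 0.27 in V338Y mice (adjusted p = 0.795).

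**Figure D2:**
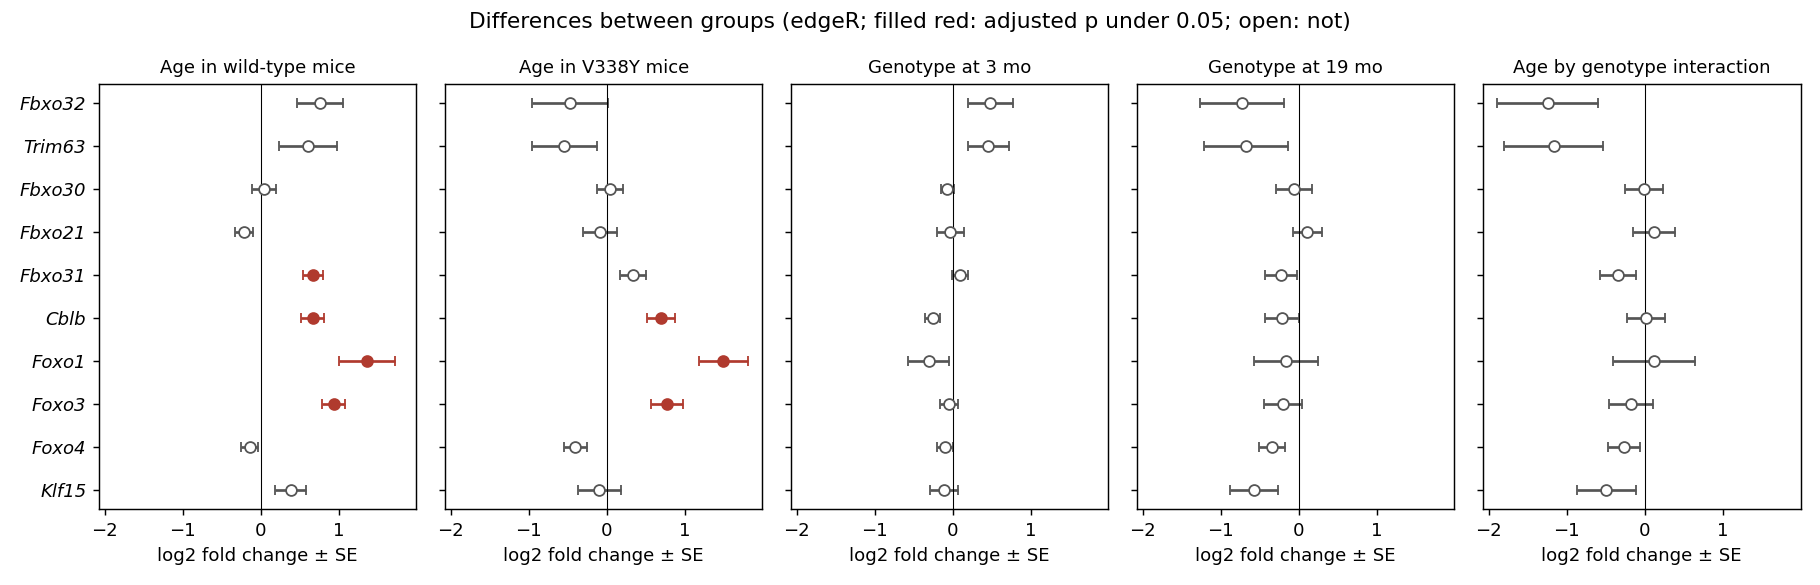
Log2 fold changes (horizontal axes) of the 10 genes with their SE, for age in each genotype, for V338Y over wild type at each age and for the age by genotype interaction. Filled red points passed the test, and they lie only in the age panels, where Foxo1 stands highest at 1.37 and 1.5.

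Between the genotypes, 0 of the 10 genes passed at 3 mo, at 19 mo or in the interaction, by edgeR as by DESeq2. At an unadjusted p under 0.05 the counts were 1 (Cblb at 3 mo), 0 and 0, beside 1293 of 13333 genes at 3 mo and 1235 of 13833 at 19 mo. Of all tested genes, 0.075% (10 of 13333) were called at 3 mo, 0.0434% (6 of 13833) at 19 mo and 0% in the interaction, where 1361 of 14128 genes had an unadjusted p under 0.05 and DESeq2 called 26. The mouse number was also used as a block, which treats same-numbered mice as pairs, although a pairing was not shown. With it 110 genes were called between the genotypes at 19 mo and again 0 of the 10. The count over all genes at 3 mo was 3 to 6 without any one of the V338Y mice or without wild-type mouse 4, and at 19 mo it was 2 or 3 without V338Y mouse 2 or wild-type mice 4 or 5, with 0 of the 10 in each of these fits.

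The widest differences in value between the genotypes were those of the muscle-specific ligases. Fbxo32 was 0.48 ± 0.29 higher in V338Y mice at 3 mo (log2, SE; 1.40-fold, adjusted p = 0.634, edgeR) and at -0.72 ± 0.54 in V338Y mice at 19 mo (adjusted p = 0.705). Trim63 was at 0.46 ± 0.26 (adjusted p = 0.614, edgeR) and -0.68 ± 0.54 (adjusted p = 0.721). The sign thus differed between the ages for both genes, with interaction values of -1.24 ± 0.65 (adjusted p = 0.565, edgeR) and -1.16 ± 0.63 (adjusted p = 0.574). The genotype groups overlapped for both genes at 3 mo and at 19 mo. Within the old V338Y group, mouse 4 had 1382 CPM and mouse 3 had 282 CPM of Fbxo32. Klf15 was at -0.57 ± 0.31 (adjusted p = 0.603, edgeR) and Foxo4 at -0.34 ± 0.16 (adjusted p = 0.571) in V338Y mice at 19 mo, and every other value at either age was between -0.31 and 0.11.

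Per kilobase of exon, the 10 genes kept much of their order across the groups. Trim63 came first with means of 118 to 179.5 CPM per kb in wild-type and 109.7 to 161 CPM per kb in V338Y mice, followed by Fbxo32 with 103 to 174 and 102 to 143 CPM per kb. The ranges of these 2 genes overlapped in all 4 groups. Foxo4 came next at 19.9 to 28.4 CPM per kb and did not overlap with Fbxo32 in any group, and Fbxo31 and Klf15 followed. Foxo1 was last at 3 mo, at 1.82 ± 0.631 (SD, n = 4) in wild-type and 1.48 ± 0.435 CPM per kb (SD, n = 4) in V338Y mice, where its range overlapped with that of Cblb. At 19 mo Foxo1 had rank 8, with a range that overlapped with those of Fbxo30 above and Cblb below it, and Fbxo21 was last in both genotypes.

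Within groups, the SD of log2 CPM was 0.73 for Fbxo32 and 0.71 for Trim63, above 97.4% and 97.3% of the 14128 genes, whose median was 0.22. Foxo1 followed with 0.57 and Klf15 with 0.42, while Foxo4 had 0.21. The order was not the same in every group, since in 19 mo wild-type mice the highest value was 2.87 times the lowest for Foxo1 and 1.83 times for Fbxo32. Within the 19 mo V338Y group the highest mouse had 4.91 times the Fbxo32 of the lowest. In that group mice 2 and 3 gave the 2 lowest values for 9 of the 10 genes, all but Foxo4, as they did for 18.8% of the 14128 genes, an order noticed after the values were seen. Mice 2 and 4 were the shallowest of the 4, at 8250653 and 8368764 counts, and mice 3 and 5 had 14555016 and 13825408. The summed fibre markers were lowest in mouse 2 (168510 CPM) and highest in mouse 3 (266713 CPM). The part of depth or fibre content in this order was not tested.

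The question whether the ligases and their regulators were high in the same mice was put by removing the group means from log2(CPM + 0.5) and correlating the 10 genes over the 15 mice. Of the 45 pairs, 13 had an adjusted p under 0.05 (permutation within groups, 100000 resamples, two-sided, adjusted over the 45 pairs), and all 13 were positive. By rank, 19 pairs passed. How many pairs of genes drawn from all tested genes would pass was not computed, so that these counts do not set the 10 genes apart. Fbxo32 and Trim63 had r = 0.914 (permutation p = 0.0001, adjusted 0.00315; rho = 0.914, permutation p = 0.00032, adjusted 0.0072). Leaving out the 2 mice farthest from the median of Fbxo32 gave r = 0.895, and r was 0.875 within the 8 mice of 3 mo and 0.931 within the 7 of 19 mo. The 2 muscle-specific ligases were therefore high and low together at both ages.

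**Figure D3:**
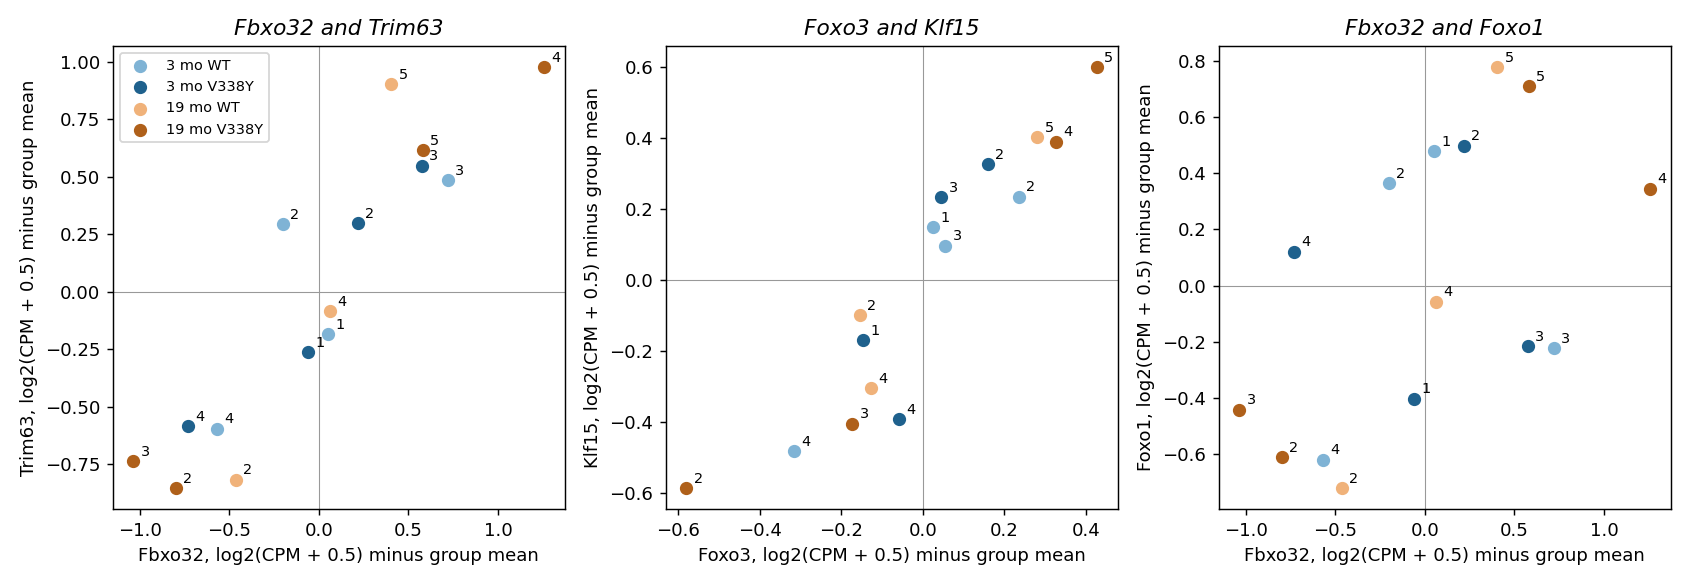
Each mouse's log2(CPM + 0.5) minus its group mean for 3 pairs of genes, with mouse numbers and the group as colour. Fbxo32 and Trim63 (r = 0.914) and Foxo3 and Klf15 (r = 0.93) line up along a diagonal, while Fbxo32 and Foxo1 (r = 0.548) scatter, the 3 mo mice more than the 19 mo mice.

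The FoxO factors and Klf15 were set against each ligase in turn. Trim63 had r = 0.859 with Foxo3 (permutation p = 0.00188, adjusted 0.0121; rho = 0.921, adjusted p = 0.00972 by permutation) and r = 0.876 with Klf15 (permutation p = 0.00321, adjusted 0.0181; rho = 0.871, adjusted 0.0213). With Foxo1 it had r = 0.727 (permutation p = 0.0231, adjusted 0.0548; rho = 0.746, adjusted 0.043), at 0.249 within the 3 mo and 0.946 within the 19 mo mice. Without the 2 mice farthest from the median of Trim63 these values were 0.819, 0.856 and 0.656. That the relation of Trim63 to Foxo1 lay in the old mice is a description, since the difference between the ages was not tested.

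Fbxo32 had r = 0.809 with Klf15 (permutation p = 0.0115, adjusted 0.0399; rho = 0.789, adjusted 0.043), which was 0.799 without the 2 farthest mice. With Foxo3 it had r = 0.737 (permutation p = 0.0387, adjusted 0.0696; rho = 0.804, adjusted 0.043), and 0.717 without those mice. With Foxo1 it had r = 0.548 (permutation p = 0.084, adjusted 0.126; rho = 0.55, adjusted 0.112), and 0.502 without them. Within the 3 mo mice Fbxo32 and Foxo1 had r = 0.0423, and within the 19 mo mice r = 0.799. The pairs of smallest p beside the 7 described were Fbxo32 with Fbxo21 (r = 0.855, permutation p = 0.00014, adjusted 0.00315), Foxo3 with Klf15 (r = 0.93, permutation p = 0.00026, adjusted 0.0039) and Foxo1 with Foxo3 (r = 0.844, permutation p = 0.00086, adjusted 0.00945). No pair with Foxo4 passed, and its r lay between -0.189 and 0.504.

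Some of these calls depended on single mice. Without wild-type mouse 5 of 19 mo 8 of 45 pairs passed, and the pairs of Klf15 with Fbxo32 (r = 0.804, adjusted permutation p = 0.0935) and with Trim63 (r = 0.859, adjusted 0.0552) did not. The pair of Fbxo32 and Klf15 also missed the threshold without V338Y mice 2, 3 or 4 or wild-type mouse 4 of 3 mo (adjusted permutation p = 0.0625 to 0.091). The pair of Trim63 and Foxo1 passed without V338Y mouse 3 or wild-type mice 1 or 3 of 3 mo (adjusted permutation p = 0.0434 to 0.0494). When the mouse number was removed as a block within each age, r of Fbxo32 and Trim63 was 0.796. Klf15 then had r = 0.841 with Fbxo32 and 0.677 with Trim63, the reverse of the order without the block. In an exact test of 144 arrangements, whose smallest possible p is 0.00694, 0 of 45 pairs passed. A lone pair at that p cannot pass the adjustment over 45 pairs, so that the 0 shows neither dependence on the mouse number nor its absence. With the block r of Trim63 and Foxo3 was 0.593, beside 0.859 without it. The 2 values of each point come from the same library.

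**Figure D4:**
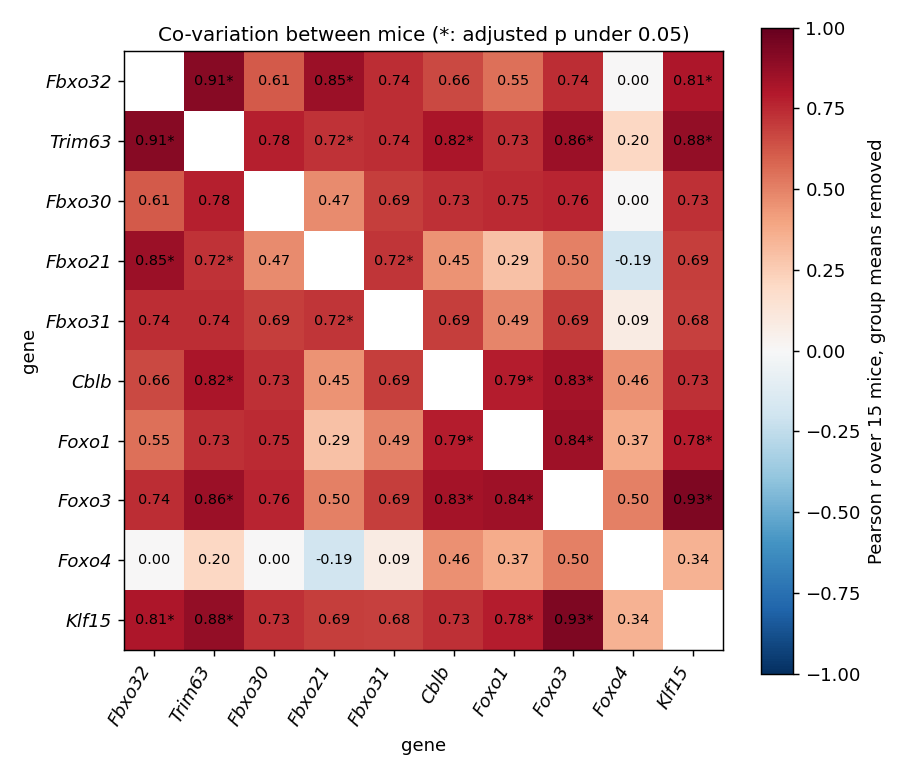
Pearson r over the 15 mice, group means removed, for each pair of the 10 genes (colour from -1 in blue to 1 in red, value in each cell, a star for an adjusted p under 0.05). The 13 starred pairs are positive, and the row of Foxo4 has none.

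Among all 14128 genes tested, those most like the leading members over the 15 mice were named by the same group-centred r, as a description. For Fbxo32 they were Klhl38 (0.921), Zkscan17 (0.921) and Kctd20 (0.916), with Trim63 at rank 4. Klhl38 lies next to Fbxo32 on chromosome 15, on the same strand and 99640 bases from it (GRCm38: Fbxo32 58175879 to 58214932, Klhl38 58314573 to 58324169). For Trim63 they were Plin4 (0.948), a lipid droplet coat protein of muscle, Arnt (0.946) and Mapk1ip1 (0.943), with Fbxo32 at rank 13. For Foxo1 they were Kmt5b (0.954), Il6ra (0.943) and Cep85l (0.936). For Klf15 they were Dusp7 (0.952), Secisbp2 (0.942) and Slc43a1 (0.931), with Foxo3 at rank 4. Other pairs described above ranked lower. Against Fbxo32, Klf15 had rank 86, Foxo3 rank 246 and Foxo1 rank 1087. Against Trim63, Klf15 had rank 45, Foxo3 rank 59 and Foxo1 rank 452.

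Genes around the 10 in the same pathways were taken from fixed lists. Of 14 other ligases of muscle, 6 rose and 2 fell with age in wild-type mice, and 4 rose and 2 fell in V338Y mice. The shares of all tested genes higher and lower were 18.3% and 17.8% in wild-type and 24.4% and 22.5% in V338Y mice. Ubr4, an N-end rule ligase, rose by 1.02 ± 0.10 in wild-type and by 0.84 ± 0.13 in V338Y mice (log2, SE; adjusted p = 0.000243 and 0.00101, edgeR), and its relative Ubr2 rose by 0.41 ± 0.11 and 0.51 ± 0.13. Trim54 (MuRF3), which binds microtubules and the sarcomere, fell by 0.83 and 0.95 on the log2 scale. Asb2, a ligase subunit that restrains muscle mass, rose by 1.05 ± 0.15 in wild-type mice (adjusted p = 0.00128, edgeR) and was at 0.27 ± 0.19 in V338Y mice (adjusted p = 0.253), with an interaction of -0.79 ± 0.26 that did not pass (adjusted p = 0.424). The list's medians were 0.23 and -0.03. In V338Y mice 2 of them rose without any of 3 mo mice 2, 3 and 4, and 1 fell without 3 mo mice 3 or 4, as in wild-type mice without 19 mo mouse 4 or 3 mo mouse 4.

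Partners of the F-box ligases were lower with age where they passed. Of 10 genes of the SCF core, the E2 enzymes and ubiquitin itself, 6 fell and 0 rose in wild-type mice, and 10 fell in V338Y mice, with medians of -0.37 and -0.57. With single mice left out, 6 to 7 fell in wild-type and 7 to 9 in V338Y mice, so that the 10 held in none of these fits. Without 3 mo mouse 2, 1 rose in wild-type mice. The SCF subunits Skp1a and Rbx1, through which F-box proteins such as Fbxo32 work, fell by 0.47 and 0.63 in wild-type and by 0.82 and 0.68 in V338Y mice. The E2 genes Ube2g1 and Ube2e1 fell by 0.66 and 0.54 in wild-type and by 0.92 and 0.75 in V338Y mice. The background share of genes lower with age was 17.8% and 22.5%, as given above.

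Targets of FoxO factors were called in both directions, as were genes at large. Of 19 such genes 5 rose and 5 fell in wild-type mice, and 6 rose and 6 fell in V338Y mice, with medians of 0.09 and -0.01. Over all tested genes 18.3% rose and 17.8% fell in wild-type mice, and 24.4% and 22.5% in V338Y mice. The cell cycle and stress genes Cdkn1a and Gadd45a rose by 1.48 ± 0.33 and 0.94 ± 0.12 in wild-type and by 2.15 ± 0.38 and 1.44 ± 0.40 in V338Y mice. Sesn3, which restrains mTORC1, rose by 1.03 ± 0.22 and 1.10 ± 0.13. The cyclin-dependent kinase inhibitor gene Cdkn1b fell by 0.75 and 0.91, although it is also known as a FoxO target. Without wild-type mouse 4 of 19 mo 3 of the targets fell.

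Of 18 genes upstream of FoxO, 3 rose and 3 fell in wild-type mice, and 3 rose and 5 fell in V338Y mice, with medians of 0.07 and 0.04. Beside these counts, 18.3% of all tested genes rose and 17.8% fell in wild-type mice, and 24.4% and 22.5% in V338Y mice. The IGF1 receptor gene Igf1r rose by 1.55 ± 0.11 in wild-type and by 1.23 ± 0.15 in V338Y mice (adjusted p = 8.99e-05 and 0.000241, edgeR), and the kinase gene Akt2 fell by 0.46 and 0.44. Mstn, encoding the growth inhibitor myostatin, fell by 1.56 in V338Y mice (adjusted p = 0.00241, edgeR) and was at -0.79 ± 0.31 in wild-type mice (adjusted p = 0.0744). Sgk1, a kinase that also phosphorylates FoxO3, fell by 0.99 in V338Y mice and was at -0.33 ± 0.26 in wild-type mice (adjusted p = 0.343, edgeR).

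Of 13 genes of the glucocorticoid response and of Klf15, 2 rose and 3 fell in wild-type mice, and 2 rose and 1 fell in V338Y mice, with medians of -0.02 and -0.000535. Shares of all tested genes higher and lower were 18.3% and 17.8% in wild-type and 24.4% and 22.5% in V338Y mice. Per1 rose by 1.37 ± 0.29 and 0.89 ± 0.32 and Zbtb16 by 0.97 ± 0.23 and 0.82 ± 0.26, while Tsc22d3 (GILZ) fell by 0.44 and 0.54. Mt1 fell by 1.27 in wild-type mice and was at 0.11 ± 0.56 in V338Y mice (adjusted p = 0.884, edgeR). Per1 also belongs to the clock list, and the members that moved did not go one way. The lower count in wild-type mice was 0 without 19 mo mice 2 or 4 and 1 without 3 mo mouse 3. In V338Y mice the higher count was 0 without 19 mo mouse 4 or 3 mo mice 3 or 4 and 1 without 19 mo mouse 5 or 3 mo mice 1 or 2, and the lower count was 0 without 19 mo mice 2 or 5 or 3 mo mice 1, 2 or 4.

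Of 10 substrates of the ligases, 2 rose and 1 fell in wild-type mice, and 2 rose and 3 fell in V338Y mice. Shares of all tested genes that rose and fell were 18.3% and 17.8% in wild-type and 24.4% and 22.5% in V338Y mice. Myod1, a target of Fbxo32 as a protein, rose by 0.75 ± 0.26 and 0.99 ± 0.24, and Irs1, a target of Cblb, by 0.37 ± 0.13 and 0.83 ± 0.23. Ckm, a target of Trim63 and a fibre marker, fell by 0.63 and 1.14. Mylpf, a fast myosin light chain, fell by 0.98 in V338Y mice and was at -0.46 ± 0.18 in wild-type mice (adjusted p = 0.0758, edgeR). When single mice were left out, 0 or 1 substrates rose in wild-type mice, so that the 2 held in none of these 7 fits. The count was 0 without 19 mo mouse 2 or without 3 mo mice 1 or 2. It was 1 without any of 19 mo mice 4 and 5 and 3 mo mice 3 and 4. There were 3 that fell without 19 mo mouse 2 and 0 without 3 mo mouse 3, and in V338Y mice 1 rose without 3 mo mouse 2.

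Of 9 genes that mark denervated muscle, a state in which Fbxo32 and Trim63 are known to rise, 8 were tested in wild-type and 9 in V338Y mice, of which 5 and 4 rose and 0 fell, with medians of 1.16 and 0.87. The share of all tested genes higher with age was 18.3% and 24.4%, as given above. In a fit of all 15 mice 3 of them rose in wild-type mice. Whether the old muscle was denervated was not tested. In the main fits Runx1 rose by 1.93 ± 0.21 and 2.57 ± 0.37, Ncam1 by 1.18 ± 0.18 and 1.58 ± 0.36 and Hdac4, a repressor active in denervation, by 1.14 ± 0.14 and 0.87 ± 0.16. The embryonic myosin gene Myh3 rose by 2.49 ± 0.45 in wild-type mice and was at -0.31 ± 0.96 in V338Y mice (adjusted p = 0.808, edgeR).

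Of 15 clock genes, 5 rose and 7 fell in wild-type mice, and 6 rose and 8 fell in V338Y mice, with medians of -0.47 and -0.89. Of all tested genes 18.3% rose and 17.8% fell in wild-type mice, and 24.4% and 22.5% in V338Y mice. Without V338Y mouse 2 of 3 mo 3 rose. Npas2 rose by 4.4 ± 0.37 and 4.60 ± 0.34 and Arntl by 1.71 ± 0.09 and 1.31 ± 0.14, while Dbp and Ciart fell, with log2 changes of -3.04 and -3.15 for Dbp and of -2.48 and -3.61 for Ciart. Klf15 is known to cycle with the clock, and its own age values were 0.39 and -0.09. The part of clock phase in the values of the 10 genes was not tested. No gene of any of these 8 lists passed between the genotypes at either age or in the interaction.

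**Figure D5:**
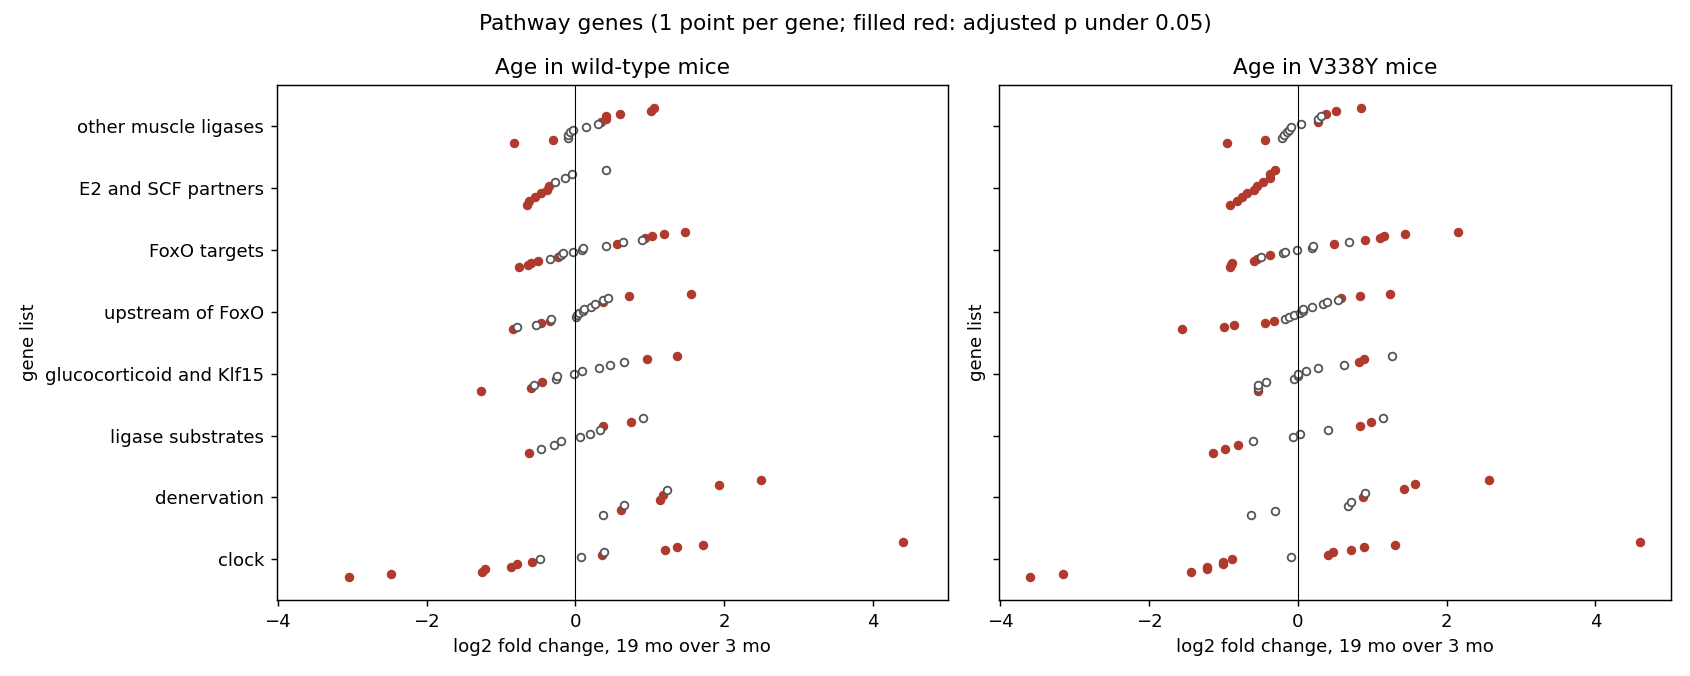
Log2 fold change with age (horizontal axes) of each tested gene of the 8 lists (rows), in wild-type and V338Y mice, filled red where the test passed. The E2 and SCF partners lie mostly on the lower side, the denervation genes mostly on the higher side, and the FoxO targets on both.

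Markers of the fibres and of other cells in the muscle also moved with age. Summed fibre markers were at 266177 to 310521 CPM in wild-type and 293919 to 324489 CPM in V338Y mice of 3 mo, and at 233465 to 287860 and 168510 to 266713 CPM at 19 mo, with no overlap between the ages in V338Y mice. Of the 10 fibre markers 1 rose and 3 fell in wild-type mice and 5 fell in V338Y mice. For these and the other cell markers, the shares of all tested genes are the background. They were 18.3% higher and 17.8% lower in wild-type mice, and 24.4% and 22.5% in V338Y mice. Tnni2 and Tnnt3, fast troponins, fell by 0.82 and 0.55 in wild-type and by 1.25 and 1.01 in V338Y mice. The slow myosin gene Myh7 rose by 5.91 ± 1.01 in wild-type mice and was at 4.42 ± 1.84 in V338Y mice (adjusted p = 0.0733, edgeR). It ran from 0.725 to 5.31 CPM in young and from 9.95 to 320 CPM in old wild-type mice. In V338Y mice it ran from 0.922 to 30.2 CPM at 3 mo and from 0.604 to 1210 CPM at 19 mo.

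Endothelial markers rose in 2 of 5 genes in wild-type and 3 of 5 in V338Y mice, with sums of 138 to 168 and 127 to 156 CPM at 3 mo and of 187 to 299 and 191 to 324 CPM at 19 mo. Of 6 macrophage markers 3 rose in each genotype, with sums of 165 to 243 and 191 to 331 CPM at 3 mo and of 256 to 282 and 309 to 374 CPM at 19 mo. Of 4 Schwann cell markers 2 rose in wild-type and 4 in V338Y mice, with sums of 17.98 to 25.4 and 16.6 to 23.2 CPM at 3 mo and of 28.7 to 38.5 and 27.7 to 72.4 CPM at 19 mo. Lymphocyte markers had sums of 10.4 to 12.5 and 9.53 to 14.3 CPM at 3 mo and of 14.6 to 18.03 and 20.9 to 36.3 CPM at 19 mo, and 1 of 1 tested gene rose in wild-type and 3 of 3 in V338Y mice. Neutrophil sums were 0.365 to 2.85 and 0.807 to 2.70 CPM at 3 mo, 2.89 to 5.87 CPM in old wild-type mice and 3.91 to 28.4 CPM in old V338Y mice other than mouse 5, which had 650 CPM. Of their tested genes 0 of 3 rose in wild-type and 6 of 7 in V338Y mice. All these sums were higher at 19 mo without overlap in both genotypes, except those of macrophages in V338Y mice.

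Adipocyte markers were called in opposite directions, since 2 of 9 fell with age in wild-type mice (Adipoq and Fabp4) and 4 of 9 rose in V338Y mice (Pparg, Plin1, Retn and Lipe). In the interaction 0 of 9 were called, as were 0 of all 14128 genes. At an unadjusted p under 0.05 (edgeR) it held 6 of the 9, beside 1361 of 14128 genes. Sums of the adipocyte markers were 418 to 1607 and 325 to 828 CPM at 3 mo and 239.8 to 527 and 285 to 1469 CPM at 19 mo, and overlapped between the ages. Fibroblast sums were 978 to 1473 and 1429 to 1477 CPM at 3 mo and 860.3 to 1173 and 662 to 1422 CPM at 19 mo, where 1 of 5 genes rose and 2 fell in wild-type and 2 fell in V338Y mice. Red cell sums were 123 to 252 and 133 to 252 CPM at 3 mo and 74.4 to 121 and 127 to 597 CPM at 19 mo, where 1 of 3 genes fell in wild-type and 0 were called in V338Y mice. Up to 8 of 9 neutrophil and 3 of 4 lymphocyte markers were at 0 in a mouse, and no marker of the other cell type lists was. Foxo1, Foxo3 and Cblb are expressed in such cells too, and the part of cell makeup in their rise was not tested. Without V338Y mouse 5 of 19 mo, which held the most neutrophil markers, these 3 genes were also called higher with age in V338Y mice. That fit leaves out 1 mouse and is no test of cell makeup.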

How the data were processed

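RNA from the quadriceps of 15 mice was sequenced as single-end reads of stranded mRNA libraries. The deposited values are expected counts per gene, which the authors estimated with RSEM on Ensembl annotation after base calling with CASAVA 1.8 and bcl2fastq 1.8.4 and with STAR 2.4.2a among the tools in their processing notes, and which were deposited as whole numbers. The methods and the notes name different mouse builds, so that positions are given on GRCm38 from the annotation used here. RSEM shares reads between near-identical genes, which matters most for gene families.

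A gene was kept where 50% or more of the mice in either compared group had 10 counts, and was tested with edgeR 4.0.16 (TMM scaling, quasi-likelihood test, R 4.3.3), with Benjamini-Hochberg adjustment over all tested genes. Each comparison was fitted on its own groups, and the interaction on all 15 mice. The fit was tested on simulated data with known changes. Alternatives were RLE and upper-quartile scaling, DESeq2 1.42.0, no filter, edgeR's own filter, leaving out the 10 most counted genes, the mouse number as a replicate block, a fit of all 15 mice and leaving out each mouse. Correlations were computed on log2(CPM + 0.5) minus the group mean, with permutation within groups. Replicates are separate mice by the labels.

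In the genotype comparison at 19 mo the deviations of same-numbered mice correlated at 0.132 to 0.4 in 3 of 3 pairs (mean 0.257). The 9 differently numbered pairs ran from -0.407 to 0.467 (mean -0.0824), with wild-type mouse 2 and V338Y mouse 3 highest. The ranges overlapped, and the labels state no pairing, so that a pairing by number was not shown. The replicate block is given as an alternative only. In the other comparisons the mean over same-numbered pairs was between -0.0512 and 0.0103. No files of 2 mice were identical. Libraries held 8250653 to 18968132 counts, which limits the least counted members to 75 to 259 (Fbxo21) and 106 to 849 counts (Foxo1) a mouse.

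The members and lists were chosen with earlier results of these data known. All 10 members are given, with up to 4 genes of each list by smallest p in either age comparison, the sex and cell markers, and the 3 genes most like each of Fbxo32, Trim63, Foxo1 and Klf15.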

Additional observations from a re-analysis of the deposited data

Results flagged for a closer look

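Among 60 groups of mice tested for a lone value far from the others, 3 stood out, about as many as chance flags at 1 in 20, and none was a value of the 10 genes. Summed neutrophil markers were 650 CPM in V338Y mouse 5 of 19 mo, the next mouse of that group having 28.4 CPM. Summed macrophage markers reached 331 CPM in 1 V338Y mouse of 3 mo. Summed red cell markers reached 252 CPM in 1 wild-type mouse of 3 mo. In V338Y mouse 5 Fbxo32 (864 CPM) and Trim63 (411 CPM) were second highest of the 4 mice of its group, and without it Foxo1, Foxo3 and Cblb rose with age by 1.23, 0.63 and 0.65 on the log2 scale in V338Y mice. The part of neutrophils or other cells in these values was not tested.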

How the results depend on the processing

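Against 3 higher and 0 lower members with age in V338Y mice, 1 (Foxo4) was lower with RLE or upper-quartile scaling, DESeq2, no filter, the replicate block or all 15 mice in 1 fit, and 1 was higher with the replicate block. Leaving out each mouse gave 3 to 4 higher and 0 to 1 lower members in V338Y mice and 3 to 5 higher in wild-type mice. With the replicate block, whose numbers do not pair the mice of different ages, Foxo3 (0.53, adjusted p = 0.0684) and Cblb (0.51, adjusted p = 0.0568) missed the threshold in V338Y mice and Foxo1 (adjusted p = 0.0838) and Cblb (adjusted p = 0.0915) in wild-type mice (edgeR), while Fbxo32 passed in wild-type mice (0.98, adjusted p = 0.0208), as it did with no filter (0.72, adjusted p = 0.0372). The cause of these changes was not tested.

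Over all genes, the block called 2229 instead of 4940 with age in wild-type mice. DESeq2 called 66, 62 and 26 and a fit without the filter 33, 14 and 5 genes for genotype at 3 mo, at 19 mo and the interaction, against 10, 6 and 0, and the block called 110 at 19 mo and 28 in the interaction. With the block, the SCF and E2 partners that fell numbered 2 and 6, the FoxO targets that rose 1 and 3 and the other ligases that rose 3 and 2 in wild-type and V338Y mice. Also with the block, in wild-type mice 1 other ligase fell, 1 gene upstream of FoxO rose and 1 fell, 1 glucocorticoid gene rose and 1 fell, and 1 substrate rose and 0 fell, and in V338Y mice 1 glucocorticoid gene rose and 2 fell and 3 clock genes rose. The fit of all 15 mice gave 3 denervation genes and 1 substrate that rose and 0 glucocorticoid genes that fell in wild-type mice. Without the filter 5 upstream genes fell and 1 substrate rose in wild-type and 2 other ligases rose in V338Y mice. In wild-type mice DESeq2 called 1 SCF partner higher and 2 substrates lower, and 0 substrates fell without the 10 most counted genes.

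Values that were near 0 changed sign. With the replicate block Fbxo30 was at -0.27 and -0.16 with age in wild-type and V338Y mice, at 0.0583 for genotype at 19 mo and at 0.0582 in the interaction, and Foxo1 at 0.0171 for genotype at 19 mo. With upper-quartile scaling Fbxo30 was at 0.016 in the interaction. Leaving out each mouse, Fbxo30 ranged from -0.16 to 0.18 with age in wild-type and from -0.12 to 0.14 in V338Y mice, from -0.22 to 0.14 for genotype at 19 mo and from -0.16 to 0.19 in the interaction. Fbxo21 ranged from -0.24 to 0.0303 with age in V338Y mice, from -0.14 to 0.13 for genotype at 3 mo and from -0.0416 to 0.23 in the interaction. Klf15 ranged from -0.31 to 0.0752 with age in V338Y mice and from -0.24 to 0.0031 for genotype at 3 mo. Foxo3 ranged from -0.15 to 0.0305 for genotype at 3 mo and from -0.30 to 0.0077 in the interaction, Foxo1 from -0.45 to 0.33 at 19 mo and from -0.18 to 0.61 in the interaction, and Cblb from -0.14 to 0.21 in the interaction.

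With the replicate block the correlations were 0.796 (adjusted exact permutation p = 0.558) for Fbxo32 and Trim63, 0.841 (0.515) for Fbxo32 and Klf15, 0.593 (0.717) for Trim63 and Foxo3 and 0.677 (0.701) for Trim63 and Klf15, with 0 of 45 pairs called. As given above, a lone pair could not pass in this exact test. Leaving out each mouse gave 8 to 19 called pairs and r of 0.772 to 0.849 for Fbxo32 and Klf15, 0.847 to 0.929 for Trim63 and Klf15 and 0.644 to 0.798 for Trim63 and Foxo1.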
